A study of Mus musculus with 4 samples.

Results

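Glucose reclaimed from the filtrate crosses the tubule cell through 2 families of carriers, and 8 of the 32285 genes listed in the scRNA-Seq files encode the members described here. They were chosen by symbol: Slc5a2 (SGLT2), Slc5a1 (SGLT1) and Slc5a10 (SGLT5) of the sodium-coupled family, and Slc2a2 (GLUT2), Slc2a5 (GLUT5), Slc2a9 (GLUT9), Slc2a1 (GLUT1) and Slc2a4 (GLUT4) of the facilitative family. The question was in which nephron segment or cell class each carrier was expressed, and how far its level differed with genotype and diet.

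The data were 4 libraries of dissociated whole kidneys from male C3H mice, 18 weeks old at harvest, with 1 library per condition. WT mice carried normal SGLT2 and SP (Sweet Pee) mice were homozygous for a missense mutation in Slc5a2, present in the germ line and so in every cell. Each genotype was fed normal diet (ND) or high-fat diet (HFD, 60% of calories from fat) for 8 weeks from 10 weeks of age, giving the 4 conditions WT-ND, WT-HFD, SP-ND, SP-HFD. The sources used here do not give the number of mice behind a library. With 1 library per condition no difference between conditions could be tested, and every interval below is a 95% interval that covers counting error only.

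In the proximal tubule, SGLT2 is known as the high-capacity apical carrier of the early segments, and SGLT1 takes up the glucose that remains further along. Glucose then leaves the cell across the basolateral membrane through GLUT2 and GLUT1. SGLT5 is a sodium-coupled mannose and fructose carrier, GLUT5 a fructose carrier, and GLUT9 a urate carrier. GLUT1 is the basal glucose carrier of many cells, and GLUT4 is the insulin-responsive carrier of muscle and fat.

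The members lie on 5 chromosomes in GRCm38 (mm10, the build listed in the submitters' processing notes), by the GENCODE M21 annotation. Slc5a2 spans chr7:128265657-128272430 on the plus strand, and Slc5a1 spans chr5:33104219-33162870 on the plus strand. Slc5a10 (chr11:61672781-61720826) and Slc2a4 (chr11:69942539-69948188) are both on the minus strand of chromosome 11. Slc2a1 (chr4:119108711-119137983) and Slc2a5 (chr4:150119283-150144169) are both on the plus strand of chromosome 4. Slc2a2 spans chr3:28697903-28731359 on the plus strand, and Slc2a9 spans chr5:38349273-38503143 on the minus strand. Slc5a1 overlaps Gm15936 on its own strand, so reads of these 2 genes may not be told apart. Slc5a2 overlaps BC017158 on the opposite strand, and the 3′ libraries keep strand.

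Slc5a10 and Slc2a5 were the members whose proximal tubule level was higher on HFD in both genotypes with counting intervals that left out 0, and the 250 bases before their start sites are shown for that reason. Sequences are from RefSeq (GRCm38.p6), chr11:61720800-61721049 on the minus strand for Slc5a10 and chr4:150119094-150119343 on the plus strand for Slc2a5. These RefSeq start sites lie inside the GENCODE spans given above, so each printed window takes in some bases of its span. RefSeq lists another start site for Slc5a10, whose window (chr11:61719986-61720235, minus strand) is not printed. Capitals mark the letters GGGCGG, the GC box, searched on both strands and, of these windows, matched only in that of Slc2a5, on the opposite strand (CCGCCC as printed).
Slc5a10: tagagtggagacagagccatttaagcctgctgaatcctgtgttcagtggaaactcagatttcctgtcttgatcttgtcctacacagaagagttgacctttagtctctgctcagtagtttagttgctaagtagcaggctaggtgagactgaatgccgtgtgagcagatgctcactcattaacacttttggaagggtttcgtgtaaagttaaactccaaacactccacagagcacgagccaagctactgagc
Slc2a5: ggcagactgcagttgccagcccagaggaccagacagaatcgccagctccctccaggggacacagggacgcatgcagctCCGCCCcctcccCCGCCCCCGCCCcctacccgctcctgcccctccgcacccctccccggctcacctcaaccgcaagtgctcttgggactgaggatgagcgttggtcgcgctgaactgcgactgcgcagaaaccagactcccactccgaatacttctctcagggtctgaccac
GGGCGG occurred in 35.7% of the 32851 RefSeq promoter windows, which, unlike the sequences printed, also take in bases after the RefSeq start site. Such a match is a description of the letters and no evidence of binding. The 3 matches of Slc2a5 begin 172, 160 and 154 bases before the RefSeq start site.

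Cell classes were set by marker UMIs (unique molecular identifiers, 1 per captured RNA molecule), without clustering. Of 58660 barcodes, 34789 passed the limits on detected genes and on mitochondrial UMIs, and 28882 were given 1 of 17 classes. The files hold 13229 to 16385 barcodes per library, while the protocol loaded 10000 cells per group. Proximal tubule cells (PTCs) numbered 4638 in WT-ND and 3265 in WT-HFD, and 1550 and 1092 in SP-ND and SP-HFD, with a median of 4085.5, 5067, 9398.5 and 4753 UMIs. PTCs were split into early (markers such as Slc5a12), late (markers such as Slc7a13) and cells of neither end. In the last, neither marker set prevailed or too few marker UMIs were found, so they include shallow barcodes. Their median depth was 1005 UMIs in WT-ND and 4147 in WT-HFD, and 3886 and 2235 in SP-ND and SP-HFD. In WT-ND the early and late cells had medians of 6036 and 7534 UMIs. Each marker was highest in its own class, except for 1 of 5 thin limb and 1 of 8 endothelial markers. The same markers had set the classes, so this is no independent check of them. A total of 379 barcodes occurred in more than 1 library.

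The WT-HFD library stood apart. Barcodes with markers of 2 classes, which were left out as possible doublets, made up 20.8% of its kept barcodes, against 10.4% in WT-ND and 7.70% and 5.72% in SP-ND and SP-HFD. Those with PTC and thick ascending limb markers numbered 330 in WT-HFD, against 172, 91 and 47 in WT-ND, SP-ND and SP-HFD. The excess was not confined to that pair. Barcodes with PTC and intercalated cell markers, the largest group in WT-HFD, numbered 470 there and 109 in WT-ND. Those with PTC and distal convoluted tubule markers numbered 276 and 67. The study describes a PTC subcluster, PT-HFD, seen mainly in WT-HFD after its own doublet removal. Those cells also expressed Slc12a1 and Umod, which are among the thick limb markers used here. The study also reports low ambient RNA in each of its samples. By its account PT-HFD resembled other clusters in total RNA, detected genes and mitochondrial share. It reports both genes, without showing the data, in injured PTCs of a published human kidney dataset. Marker UMIs alone, as used here, cannot tell PT-HFD cells from doublets. The PTCs that remained in WT-HFD held 862 CPM (UMIs per 1000000 UMIs of the same cells) of summed thick ascending limb markers, against 255 in WT-ND and 231 and 252 in SP-ND and SP-HFD. Their own 7 PTC markers summed to 9890 CPM in WT-HFD, against 14057, 12053 and 11632 CPM in the same order. The part of this in any ratio against WT-HFD was not tested, except where a value without such cells is given.

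RNA of the abundant PTC carriers was also found in cells that should lack it. Lymphocytes, which have no known use for SGLT2, held 24.8 CPM of Slc5a2 in WT-ND (12 UMIs), 12.3 CPM in WT-HFD (22 UMIs) and 4.92 CPM in SP-HFD (11 UMIs). No Slc5a2 UMI was found among 283647 lymphocyte UMIs in SP-ND, where 3 counts of the total would be 10.6 CPM and the exact upper bound was 13.0 CPM. Carry-over in proportion to PTC markers would have given 14.3, 14.7, 5.92 and 1.07 UMIs in WT-ND, WT-HFD, SP-HFD and SP-ND. Levels of Slc5a2 at or below about these values in other classes were therefore read as background.

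**Figure D1:**
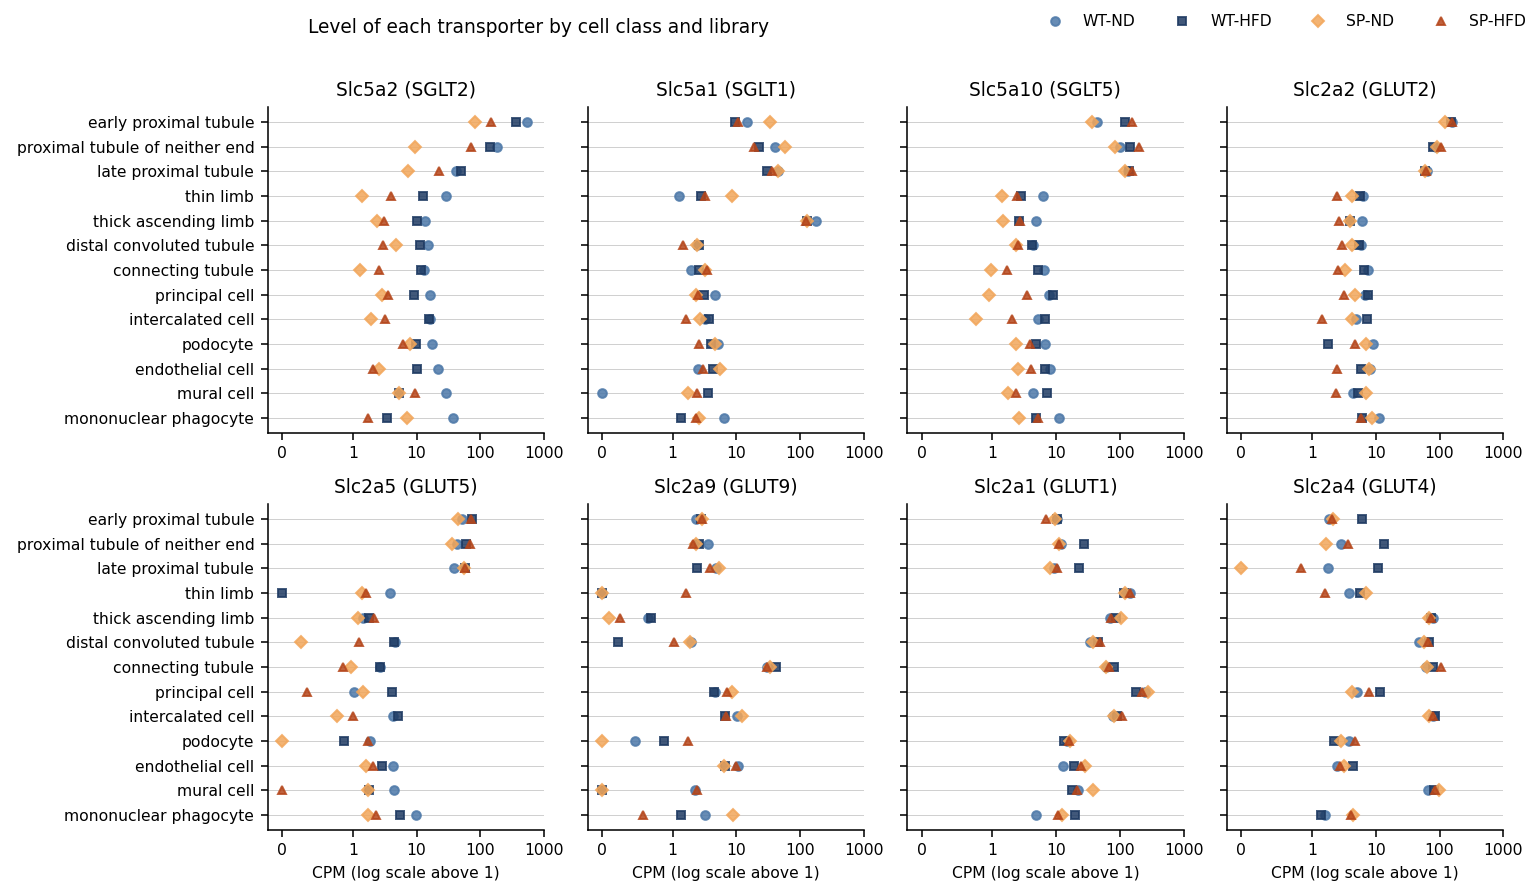
CPM of each transporter (x axis, log scale above 1) in 13 cell classes and proximal tubule segments (y axis), with 1 point per library. Slc5a2, Slc5a10, Slc2a2 and Slc2a5 were highest in proximal tubule cells, Slc5a1 in the thick ascending limb, Slc2a1 in principal cells, Slc2a9 in the connecting tubule, and Slc2a4 was highest in thick limb, distal convoluted and connecting tubule, intercalated and mural cells.

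Slc5a2, the gene mutated in SP mice, was a gene of the early proximal tubule in all 4 libraries, and its level was lower in both SP libraries. All PTCs together held 306 CPM in WT-ND (299 to 312) and 209 in WT-HFD (203 to 214), and 59.4 (55.7 to 63.2) and 99.0 (92.8 to 105.5) in SP-ND and SP-HFD. Both WT libraries lay above both SP libraries and no intervals overlapped. PTCs held 95.4% of the Slc5a2 UMIs of all classes in WT-ND and 94.2% in WT-HFD, and 91.2% and 89.4% in SP-ND and SP-HFD. The mutation changes the protein and these counts do not show the base, so the RNA level does not check the genotype labels.

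Within the proximal tubule Slc5a2 was higher in early than in late cells. Early cells held 532 CPM in WT-ND and 359 in WT-HFD, and 83.7 and 149 in SP-ND and SP-HFD. Late cells held 41.9, 50.5, 7.23 and 22.5 CPM in the same order. The early level was 12.7 times the late level in WT-ND and 7.11 times in WT-HFD. In SP-ND and SP-HFD it was 11.6 times and 6.61 times. The late value of SP-ND rested on 8 UMIs and lay under the exact upper bound of SP-ND lymphocytes (13.0 CPM). The ratio was larger in both ND libraries than in both HFD libraries, although the interval for SP-ND (log2 ratio 2.55 to 4.75) took in the WT-HFD value of 2.83 and the SP-HFD value of 2.72.

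On ND the log2 ratio of SP over WT was −2.36 (−2.46 to −2.27) in all PTCs and −2.67 (−2.77 to −2.57) in early cells. On HFD it was −1.08 (−1.18 to −0.98) in all PTCs and −1.27 (−1.38 to −1.15) in early cells. The ratio of HFD over ND had opposite signs in the 2 genotypes. In WT PTCs the value was −0.55 (−0.60 to −0.50), and in SP PTCs 0.74 (0.61 to 0.87). In early cells the values were −0.57 (−0.63 to −0.51) and 0.83 (0.69 to 0.97). In late cells the WT ratio was 0.27 (0.04 to 0.50), at a WT-ND level inside the interval of lymphocytes (12.8 to 43.4 CPM). In late SP cells it was 1.64 (0.56 to 2.92), on 8 UMIs in SP-ND. That SP-ND level was under the exact upper bound of SP-ND lymphocytes (13.0 CPM). Over all SP PTCs under 30% mitochondrial UMIs the ratio of HFD over ND was 0.20 (−0.03 to 0.43). The summed PTC markers given above were also lower in WT-HFD than in WT-ND. Between these libraries Hnf4a, a transcription factor of PTCs, was at −0.46 (−0.52 to −0.40), and the brush border scaffold Pdzk1 at 0.10 (0.06 to 0.14). The part of this in the WT ratio of Slc5a2 was not tested. After early cells were thinned to 1000 UMIs, leaving out 196, 32, 50 and 26 shallower cells, the share with a Slc5a2 UMI was 37.3% in WT-ND and 24.6% in WT-HFD, and 7.41% and 17.5% in SP-ND and SP-HFD, in the same order as the CPM. Without thinning, over all early cells, the shares were 75.5%, 68.2%, 42.1% and 61.7%. In T or NK cells the thinned shares were 2.75%, 0.775%, 0% (0 of 96 cells, with an exact upper bound of 3.77%) and 1.05%, at median depths of 1978 to 3293 UMIs, against 5969 to 10934 UMIs in early cells.

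**Figure D2:**
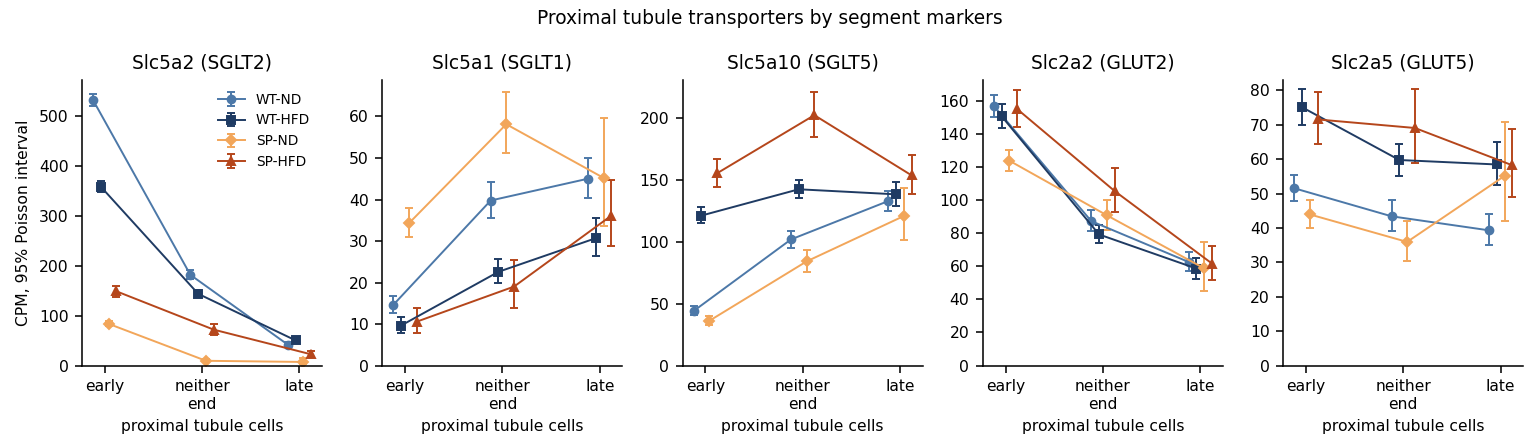
CPM (y axis, separate scale per gene) of 5 transporters in early cells, cells of neither end and late cells of the proximal tubule (x axis) in the 4 libraries; bars are exact 95% Poisson intervals and lines join the values of a library. Slc5a2 and Slc2a2 were highest in early cells, Slc5a1 was lowest in early cells, and the 2 HFD libraries had the highest Slc5a10 in early cells (121 and 156 CPM).

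Slc5a1 was expressed in 2 places, the thick ascending limb and, at a lower level, the proximal tubule. In the thick ascending limb it was at 175 CPM in WT-ND (165 to 186) and 129 in WT-HFD (121 to 137), and 127 (120 to 134) and 123 (116 to 131) in SP-ND and SP-HFD. WT-ND lay above the other 3 libraries, which overlapped one another. The thick limb level was 5.92 times that of PTCs in WT-ND and 6.70 times in WT-HFD, and 3.08 times and 6.53 times in SP-ND and SP-HFD. The limb held 53.6% of the Slc5a1 UMIs of all classes in WT-ND and 60.5% in WT-HFD, and 62.7% and 79.8% in SP-ND and SP-HFD. These shares move with how many PTCs a library holds.

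Among thick limb cells Slc5a1 was uneven. Cells were grouped by Cldn10 and Cldn16, the paracellular cation channels that mark different thick limb cells, and by Nos1, which marks the macula densa. These groups were chosen after the values had been seen. Cells with at least 2 UMIs of Cldn16 and fewer of Cldn10 held 219, 177, 185 and 149 CPM of Slc5a1 in WT-ND and WT-HFD, then SP-ND and SP-HFD. Cells with Cldn10 and without Cldn16 held 130, 72.8, 72.6 and 86.1 CPM, lower in each library with no overlap of the intervals. The Cldn16 group had 64, 77, 104 and 96 cells, and the Cldn10 group 427, 394, 467 and 492. All thick limb cells numbered 1034, 910, 1151 and 1181. Those outside both claudin groups are not described, so these groups are no full account of the limb. The Nos1 cells, only 14, 4, 7 and 9 in number, held 467 CPM (368 to 583), 384 (175 to 728), 244 (156 to 362) and 133 (72.8 to 223.5).

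**Figure D3:**
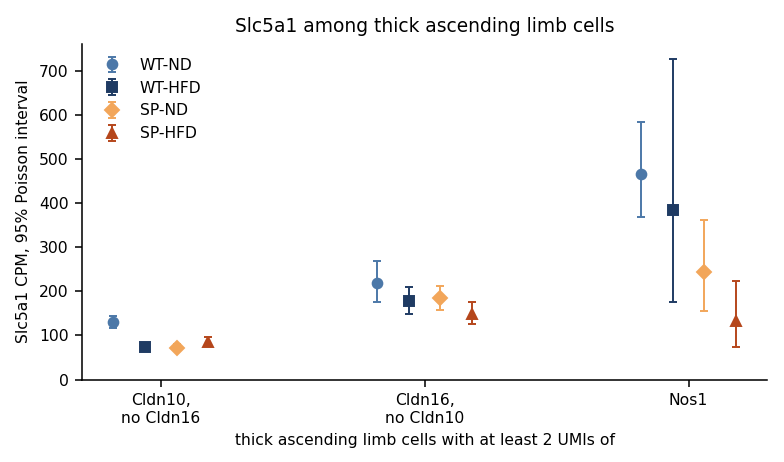
Slc5a1 CPM (y axis) in thick ascending limb cells grouped by claudin or Nos1 UMIs (x axis), with 1 point per library and exact 95% Poisson intervals. Cldn16 cells lay above Cldn10 cells in each library, and the Nos1 points rest on 4 to 14 cells.

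In the proximal tubule Slc5a1 ran opposite to Slc5a2. Early cells held 14.6 CPM in WT-ND (12.7 to 16.8) and 9.65 in WT-HFD (7.89 to 11.7), and 34.3 (30.9 to 37.9) and 10.6 (7.90 to 13.9) in SP-ND and SP-HFD. Late cells held 45.0, 30.7, 45.2 and 36.1 CPM in the same order. Late cells were above early cells 3.08-fold in WT-ND, 3.18-fold in WT-HFD and 3.42-fold in SP-HFD, but 1.32-fold in SP-ND, where the log2 ratio of early over late was −0.40 (−0.83 to 0.06). SP-ND was the library with the highest early level.

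The higher Slc5a1 of SP-ND was seen in early cells and cells of neither end. The split itself differed, with early cells at 62.5% of SP-ND PTCs and 40.2% of WT-ND PTCs, and late cells at 7.42% and 19.3%. The part of segment assignment in these ratios was not tested. For Slc5a1, SP over WT on ND was 1.23 (0.98 to 1.48) on the log2 scale in early cells and 0.55 (0.30 to 0.79) in cells of neither end. In late cells it was 0.01 (−0.45 to 0.44), from 50 UMIs in SP-ND. On HFD it was 0.13 (−0.38 to 0.63) in early cells. The ratio of HFD over ND was −1.70 (−2.14 to −1.28) for SP early cells and −0.60 (−0.96 to −0.25) for WT early cells, and −0.32 (−0.84 to 0.21) and −0.55 (−0.82 to −0.29) in late cells. Over all PTCs the SP over WT ratio on ND was 0.48 (0.33 to 0.62), and it was 0.26 (−0.03 to 0.55) under 30% mitochondrial UMIs. The study reports Slc5a1 as unchanged between its groups, with no compensatory rise in PTCs. It set cell types by clustering, and the cause of the difference from the values here was not tested.

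Slc5a10 was a gene of the proximal tubule, with 93.8% to 95.6% of its UMIs in PTCs, and its level in early cells was higher in both HFD libraries. Early cells held 44.1 CPM in WT-ND (40.7 to 47.8) and 121 in WT-HFD (115 to 128), and 36.2 (32.7 to 39.9) and 156 (145 to 167) in SP-ND and SP-HFD. The 2 ND libraries lay far below the 2 HFD libraries. Late cells held 133, 139, 121 and 154 CPM in the same order. Their CPM intervals on ND and HFD overlapped in each genotype, although the interval of the SP ratio given below left out 0.

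The log2 ratio of HFD over ND in early cells was 1.46 (1.32 to 1.60) for WT and 2.11 (1.93 to 2.28) for SP. In late cells it was 0.06 (−0.08 to 0.19) and 0.35 (0.06 to 0.64). The slope along the tubule also differed with diet. Late cells held 3.02 times the early level in WT-ND and 3.35 times in SP-ND, but 1.14 times in WT-HFD, and in SP-HFD early over late was 0.02 (−0.17 to 0.20) on the log2 scale. Over all PTCs the level was 83.8, 133.5, 54.3 and 167 CPM in WT-ND and WT-HFD, then SP-ND and SP-HFD. SP over WT was −0.63 (−0.74 to −0.51) on ND and 0.32 (0.24 to 0.41) on HFD, and in early cells −0.29 (−0.47 to −0.10) and 0.36 (0.23 to 0.49). On ND the ratio was also smaller in cells of neither end, at −0.28 (−0.46 to −0.10), and in late cells, at −0.14 (−0.41 to 0.12), than over all PTCs. Early cells made up 62.5% of SP-ND PTCs and 40.2% of WT-ND PTCs, and late cells 7.42% and 19.3%. The value on HFD was −0.20 (−0.28 to −0.13) without a limit on mitochondrial UMIs.

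Slc2a2, which carries glucose out across the basolateral membrane, had the narrowest range between libraries in PTCs. Over all PTCs it was at 113 CPM in WT-ND and 103 in WT-HFD, and 111 and 120.0 in SP-ND and SP-HFD. The largest of the 4 ratios was 0.22 (0.12 to 0.32) for SP over WT on HFD, 1.16-fold. Early cells held 157, 151, 124 and 155 CPM and late cells 62.6, 58.7, 58.8 and 61.7 CPM, a gradient of 2.51-, 2.57-, 2.11- and 2.51-fold. The SP-ND early level was the low one, with SP over WT at −0.34 (−0.44 to −0.24), in the library whose early Slc5a1 was high.

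Slc2a5 was also a PTC gene, with 92.4% to 95.8% of its UMIs there, and was higher on HFD in both genotypes. PTCs held 46.1 CPM in WT-ND and 65.5 in WT-HFD, and 42.6 and 67.7 in SP-ND and SP-HFD. The log2 ratio of HFD over ND was 0.51 (0.41 to 0.61) for WT and 0.67 (0.51 to 0.82) for SP, while SP over WT was −0.11 (−0.25 to 0.02) on ND and 0.05 (−0.08 to 0.18) on HFD. In late cells the diet ratio was 0.57 (0.35 to 0.80) for WT and 0.08 (−0.37 to 0.54) for SP, where SP-ND held 61 UMIs. Early over late was 0.39 (0.19 to 0.59) in WT-ND, 0.36 (0.18 to 0.55) in WT-HFD and 0.30 (0.01 to 0.59) in SP-HFD, but −0.33 (−0.71 to 0.08) in SP-ND. Khk, ketohexokinase, which phosphorylates the fructose that GLUT5 and SGLT5 bring in, was at 414, 624, 377 and 609 CPM in PTCs of WT-ND and WT-HFD, then SP-ND and SP-HFD. Its log2 ratio of HFD over ND was 0.59 (0.56 to 0.63) for WT and 0.69 (0.64 to 0.74) for SP.

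Slc2a9 was most abundant in the connecting tubule, where it was at 29.9 CPM in WT-ND (23.6 to 37.3) and 42.0 in WT-HFD (28.7 to 59.3), and 34.2 (28.0 to 41.4) and 30.0 (20.9 to 41.7) in SP-ND and SP-HFD, with overlapping intervals. Next, among classes with larger counts, came intercalated cells at 6.53 to 12.3 CPM. Endothelial cells held 6.43 to 10.6 CPM and principal cells 4.52 to 8.54 CPM, and these ranges over the libraries overlapped. T or NK cells took in the same levels, at 0 to 12.4 CPM on 8 UMIs, as did erythroid cells at 0 to 26.5 CPM on 3 UMIs. PTCs held 2.61 to 3.33 CPM, and their 4 ratios all had intervals that took in 0. Among intercalated cells, those with Slc4a1, the anion exchanger of type A cells, held 17.9, 5.90, 18.1 and 8.41 CPM, and those with Slc26a4, the exchanger of type B cells, 2.73, 5.04, 6.48 and 1.32 CPM. These groups were chosen after the values had been seen, and the 4 values of the Slc26a4 cells rest on 4, 7, 8 and 2 UMIs.

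Slc2a1 followed the collecting duct. Principal cells held 247 CPM in WT-ND and 181 in WT-HFD, and 272 and 225 in SP-ND and SP-HFD, and thin limb cells held 143, 114, 122 and 145 CPM. Intercalated cells (77.5 to 109.9 CPM), thick limb cells (71.1 to 104.3 CPM) and connecting tubule cells (60.5 to 80.0 CPM) followed, with ranges that overlapped. Principal cells had less on HFD in both genotypes, by −0.45 (−0.64 to −0.25) in WT and −0.27 (−0.44 to −0.11) in SP on the log2 scale. Intercalated cells had more, by 0.25 (0.01 to 0.49) and 0.42 (0.19 to 0.65). In the thick limb the ratio was 0.30 (0.12 to 0.48) for WT and −0.52 (−0.67 to −0.38) for SP. Thick limb cells with Cldn10 and without Cldn16 held 81.4, 105.6, 126.4 and 88.85 CPM in WT-ND and WT-HFD, then SP-ND and SP-HFD. Those with Cldn16 and without Cldn10 held 67.5, 60.9, 53.4 and 54.6 CPM, with overlapping intervals. Intercalated cells with Slc4a1 held 108, 120, 104 and 134 CPM, and those with Slc26a4 57.3, 67.7, 67.2 and 65.4 CPM. The pooled UMIs of the Slc4a1 cells were 951570, 1695330, 1048389 and 2735499, and those of the Slc26a4 cells 1465689, 1388378, 1234810 and 1514104, so that Slc4a1 cells gave the larger part of these UMIs on HFD and the smaller on ND in both genotypes. The part of this in the intercalated cell ratios was not tested.

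Slc2a4 was found in the distal nephron and in mural cells. In the thick ascending limb it was at 77.8, 74.5, 68.2 and 74.6 CPM in WT-ND and WT-HFD, then SP-ND and SP-HFD, and in intercalated cells at 79.8, 83.9, 69.2 and 80.4 CPM. The distal convoluted tubule held 48.1, 68.6, 58.1 and 66.5 CPM, and the connecting tubule 62.5, 80.0, 63.5 and 104.6 CPM. Mural cells held 66.3, 81.6, 99.8 and 83.6 CPM, from 30 to 57 UMIs. The ranges of the first 2 classes, the connecting tubule and mural cells overlapped, so that their order is not resolved. The distal convoluted tubule was below intercalated and thick limb cells in each of the 4 libraries. Principal cells, which lie beside intercalated cells in the collecting duct, held 4.27 to 11.8 CPM. In the distal convoluted tubule HFD over ND was 0.51 (0.25 to 0.78) for WT and 0.20 (−0.06 to 0.45) for SP. In the connecting tubule it was 0.36 (−0.09 to 0.79) for WT and 0.72 (0.38 to 1.05) for SP.

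Slc2a1 and Slc2a4 stood out in PTCs of WT-HFD, and there the other-class RNA stood beside them. Slc2a4 in PTCs was at 2.11 CPM in WT-ND and 9.95 in WT-HFD, and 1.87 and 2.17 in SP-ND and SP-HFD, and Slc2a1 at 10.5, 19.7, 9.92 and 8.78 CPM. Lymphocytes of WT-ND held 2.07 CPM of Slc2a4 (1 UMI) and 8.28 CPM of Slc2a1 (4 UMIs), with intervals that took in the WT-ND PTC levels. Lymphocytes held 4, 23, 3 and 18 UMIs of Slc2a1 in WT-ND and WT-HFD, then SP-ND and SP-HFD. Carry-over in proportion to PTC markers would have given 0.493, 1.39, 0.179 and 0.524. The lymphocyte level of Slc2a1 was therefore not read as such carry-over, and its source was not tested. HFD over ND in WT PTCs was 2.24 (1.84 to 2.66) for Slc2a4 and 0.91 (0.71 to 1.12) for Slc2a1. In the same PTCs, summed markers of intercalated cells were at 277 CPM in WT-HFD against 60.8, 36.2 and 42.6, those of principal cells at 269 against 103, 72.2 and 106, and those of the distal convoluted tubule at 267 against 51.8, 35.3 and 36.4 in WT-ND, SP-ND and SP-HFD. When a second class was allowed up to 20% of the first, a limit chosen after seeing the data, the ratios were 1.82 (1.20 to 2.47) for Slc2a4 and 0.39 (0.13 to 0.65) for Slc2a1. In early cells alone, where thick limb markers were at 495 CPM in WT-HFD, they were 1.69 (1.00 to 2.41) and 0.04 (−0.33 to 0.41).

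**Figure D4:**
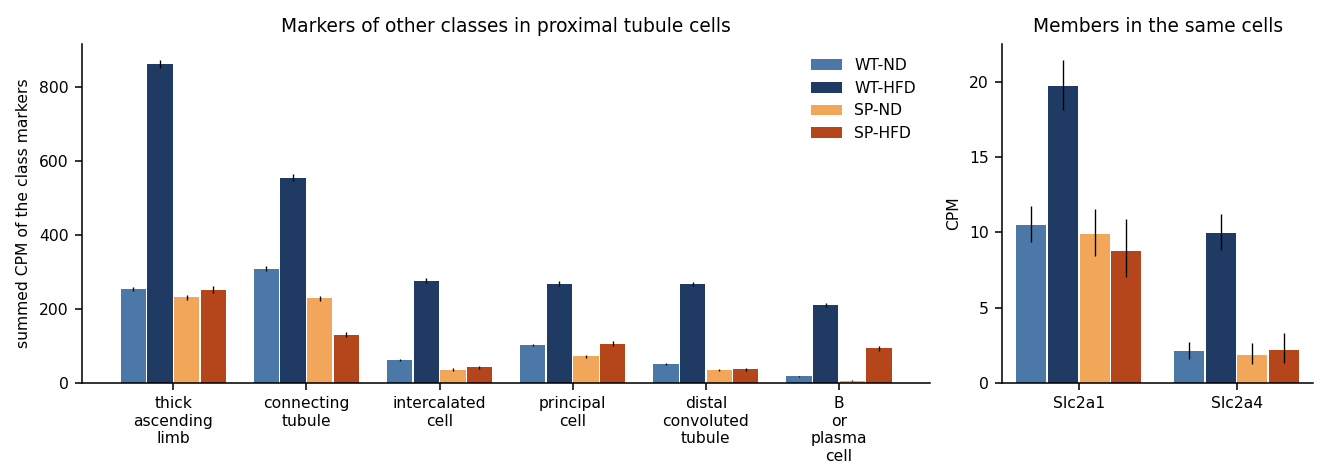
Left, summed CPM (y axis, from 0) of the markers of 6 other classes in proximal tubule cells of the 4 libraries; right, CPM of Slc2a1 and Slc2a4 in the same cells. Thin lines are exact 95% Poisson intervals, and WT-HFD was the highest of the 4 libraries in each group of bars.

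Counts of members past 2-fold in PTCs are given beside the share of all genes past it. With genes of at least 100 UMIs over the 2 libraries compared, HFD over ND in WT took in all 8 members, of which 1 (Slc2a4, higher) passed 2-fold, where 8.06% of the 11106 genes did. In SP 2 of 6 members passed (Slc5a10 higher, Slc5a1 lower), where 4.98% of 9317 genes did. SP over WT on ND had 1 of 7 members past 2-fold (Slc5a2, lower) and 2.16% of 10347 genes. SP over WT on HFD had 3 of 8 (Slc5a2, Slc2a1 and Slc2a4, each lower) and 6.53% of 10390 genes. Of all genes past 2-fold, 733 were higher and 162 lower with HFD in WT, and 265 and 199 in SP. For SP over WT, 65 were higher and 158 lower on ND, and 41 and 637 on HFD. In both comparisons with WT-HFD most genes past 2-fold thus lay on the side of higher values in WT-HFD. Slc2a4 was under the minimum in SP and in the ND comparison, and Slc2a9 in SP. The median log2 ratio of the members was 0.19, 0.39, −0.11 and 0.01 in these 4 comparisons, and that of all genes tested 0.04, 0.01, 0.03 and 0.03. Comparisons that share a library are not independent of each other.

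**Figure D5:**
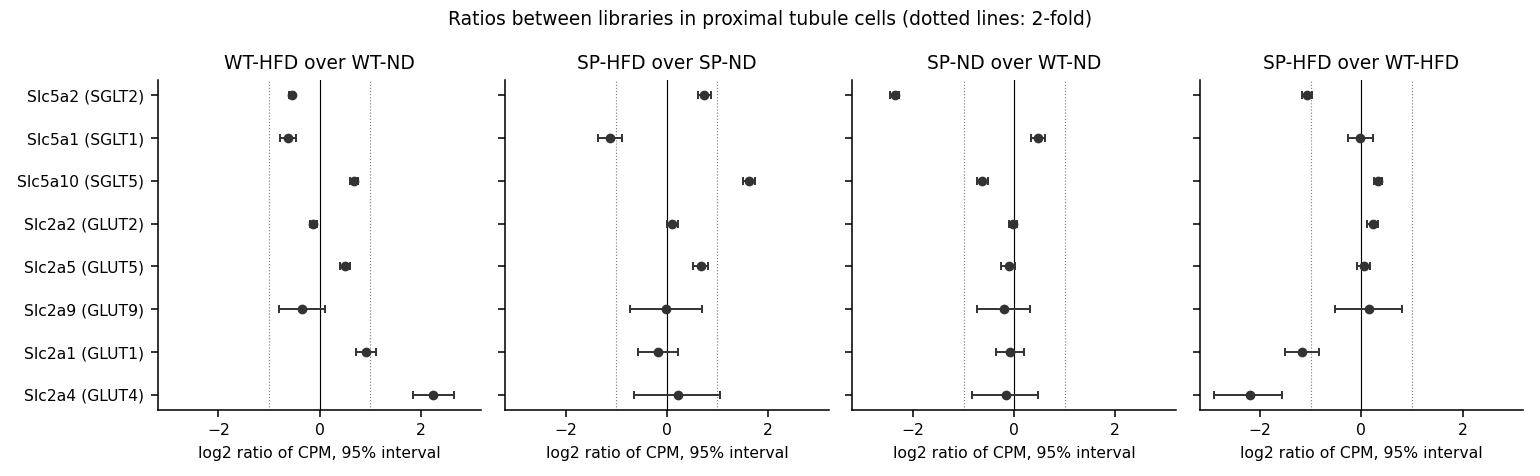
Log2 ratio of CPM (x axis) of the 8 members in all proximal tubule cells for the 4 comparisons, with exact conditional 95% intervals (counting error only); dotted lines mark 2-fold. Slc5a2 was lower in SP on both diets, Slc5a10 and Slc2a5 were higher on HFD in both genotypes, and Slc2a1 and Slc2a4 differed in the comparisons with WT-HFD.

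Of 13 other sugar carriers, 6, 5, 6 and 5 had enough UMIs in PTCs for these comparisons. The only one past 2-fold was Slc5a3, the sodium/myo-inositol cotransporter, at 18.7 CPM in WT-ND and 64.9 in WT-HFD, and 25.0 and 26.1 in SP-ND and SP-HFD. It passed in WT with HFD and in SP over WT on HFD, and its highest level was in the thick limb (786 to 1154 CPM), whose markers were also high in WT-HFD PTCs. The medians of this list were 0.22, −0.20, −0.08 and −0.45. Slc5a11, another sodium/myo-inositol carrier, and Slc5a9 (SGLT4) were PTC genes with 20.6 to 31.9 and 4.03 to 6.86 CPM. Slc2a3 (GLUT3) was highest in neutrophils (181 to 414 CPM), Slc50a1 in endothelial cells (209 to 246 CPM) and Slc2a8 in principal cells (23.0 to 39.1 CPM). Slc2a7 and Slc5a4a had no UMI in any class.

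Of 11 partners, regulators and first enzymes of sugar use, 10 were tested in each comparison. Txnip, which lowers glucose uptake, and Hk1, hexokinase 1, were past 2-fold in WT with HFD, at 39.7 and 82.6 CPM and at 5.78 and 22.5 CPM in WT-ND and WT-HFD. Hk1 was highest in the thick limb (158 to 176 CPM) and Txnip in endothelial cells (1044 to 1393 CPM), whose summed markers were at 114 CPM in PTCs of WT-HFD against 42.9, 22.4 and 35.4. Sgk1, a kinase known to act on SGLT1 and other carriers, was at 18.3, 25.0, 59.3 and 13.3 CPM in WT-ND and WT-HFD, then SP-ND and SP-HFD. It was past 2-fold in SP over WT on ND, at 1.70 (1.54 to 1.85), and in SP with HFD, at −2.15 (−2.43 to −1.89). SP-ND was the library highest in both Sgk1 and Slc5a1 in PTCs, and a link between them was not tested. Sgk1 was also most abundant in endothelial cells (639 to 909 CPM), whose markers were lowest in SP-ND PTCs. The part of such RNA in the Sgk1 ratios was not tested. In SP over WT on HFD only Hk1 passed, at −1.96 (−2.38 to −1.57). The medians of the list were 0.14, 0.06, 0.04 and 0.03.

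Pdzk1ip1 (MAP17), the small membrane protein that SGLT2 needs for activity, was higher in early than in late cells, as was Slc5a2. Its highest level was in principal cells (1064 to 1939 CPM), where Slc5a2 was at 2.85 to 15.9 CPM. Early PTCs held 713 CPM in WT-ND and 536 in WT-HFD, and 573 and 549 in SP-ND and SP-HFD, and late cells 255, 244, 240 and 190 CPM. Over all PTCs SP over WT was −0.05 (−0.09 to −0.01) on ND and 0.06 (0.01 to 0.11) on HFD. Hnf4a, a transcription factor of proximal tubule cells, was at 216, 157, 237 and 241 CPM, lowest in WT-HFD, the library with the lowest PTC markers.

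The genes most like each member were sought over 62 pairs of class and library, by Pearson's r of log2(CPM + 1) among 14670 genes, markers left out. These pairs share libraries and segment identity, and the r values are descriptions. Slc2a2 was nearest to Hnf4a (r = 0.894), Slc5a2 to Cyp2e1 (0.803) and Slc5a10 to Nat8 (0.862), all PTC genes, and Slc2a5 to Pdzk1 (0.823), the scaffold protein of the PTC brush border. Slc2a4 was nearest to Gcgr, the glucagon receptor (0.872), and the genes like Slc2a1 included Cldn3 (0.816) and Eno1, a glycolytic enzyme (0.812). Slc5a1 was nearest to Edar (0.734), with Pappa2, a protease known from the macula densa, in the third place (0.716), and Slc2a9 to Stc1 (0.692). Among the members, the closest pair was Slc5a10 and Slc2a5 (0.756), followed by Slc5a2 and Slc2a5 (0.698).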

How the data were processed

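The authors deposited UMI counts per gene and barcode, made from 10x Genomics 3′ v3.1 libraries with Cell Ranger and not normalized. Versions disagree between sources (6.1.2 in the file headers, 2.1.1 in the submitters' processing notes, which also list mm10). The study removed doublets (scDblFinder and by hand) and corrected for ambient RNA with SoupX. The deposited counts are whole numbers and include barcodes past the study's mitochondrial limit, and whether SoupX was applied to them is not given in the sources used here. Depth was 93142028, 115117649, 111617794 and 90728590 UMIs (WT-ND and WT-HFD, then SP-ND and SP-HFD).

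Barcodes with 200 to 5000 genes and under 50% mitochondrial UMIs were kept, after the study's methods. A class score is the share of a barcode's UMIs from that class's markers, divided by the median share of the 100 highest cells of at least 1000 UMIs. The highest score set the class (at least 3 marker UMIs and a score of 0.05). A barcode whose second class had 2 UMIs and a score of at least 0.5 of the first was left out as a possible doublet, except for neighbouring distal segments. No doublet caller was run. PTCs were early or late where that marker score was 2 times the other, with at least 2 UMIs. UMIs were pooled per class and library and scaled to CPM, whose intervals are exact Poisson ones. Ratios have exact conditional binomial intervals, while shares of cells have Clopper-Pearson intervals. With 1 library per condition no test was run. Counts of genes past 2-fold used genes of at least 100 UMIs over both libraries, a count of 0 being set to 3.

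The named genes are the 8 members, 2 lists of related genes and the 3 genes nearest each member. Values of some of these genes are not reported here. The members, lists, markers and settings were chosen with earlier results of these data known. Ratio intervals and class assignment were also run on simulated data. Those data used the same counting model and the class profiles found here, with fewer doublets than the 2-class barcodes of WT-HFD. The runs are therefore no independent check of the classes or of the differences between libraries. Tables were made in Python 3.11.15 (pandas 2.3.3, scipy 1.17.1, numpy 2.4.6) and plots with matplotlib 3.10.9. Factors by edgeR 4.0.16 and DESeq2 1.42.0 (R 4.3.3) served as alternative scalings. Other alternatives changed the limits on cells, the denominator, the marker minimum and the handling of doublets and background, and took the segments alone.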

Additional observations from a re-analysis of the deposited data

Results flagged for a closer look

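In several classes the ratio of a member pointed one way in one genotype or diet and the opposite way in the other, with both counting intervals leaving out 0. With 1 library per condition these differences were not tested. Slc5a2 on HFD over ND was −0.55 in WT and 0.74 in SP over all PTCs (log2), and −0.57 and 0.83 in early cells. In cells of neither end it was −0.34 and 2.91, where SP-ND held 41 UMIs. That SP-ND level, 9.57 CPM, was under the exact upper bound of SP-ND lymphocytes (13.0 CPM). The summed PTC markers were also lower in WT-HFD than in WT-ND, and their part in the WT values was not tested. Slc5a10 in SP over WT was −0.63 on ND and 0.32 on HFD over all PTCs, −0.29 and 0.36 in early cells, and −0.28 and 0.51 in cells of neither end. Slc2a1 in the thick ascending limb was 0.30 with HFD in WT and −0.52 in SP, and correspondingly 0.55 in SP over WT on ND and −0.27 on HFD, since SP-ND had the highest level of the 4 libraries. SP-ND was also the highest among thick limb cells with Cldn10 and without Cldn16. Among those with Cldn16 and without Cldn10 it was not, and the intervals of the libraries overlapped. Slc2a2 in PTCs was −0.13 with HFD in WT and 0.11 in SP, both under 1.1-fold.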

How the results depend on the processing

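Of the 32 ratios of members in PTCs, 20 had an interval that left out 0, and 15 of these kept their sign under each alternative run. Values below are log2 ratios, and the cause of a change was not tested. Signs turned for Slc5a2 with HFD in WT (0.27 in late cells), Slc5a10 in SP over WT on HFD (−0.20 without a mitochondrial limit, −0.06 as a mean over cells), and Slc2a2 (0.05 with HFD in WT at the 20% limit on a second class, −0.18 with HFD in SP as a mean over cells, −0.13 in SP over WT on HFD without a mitochondrial limit). Slc5a2 with HFD in WT otherwise moved to −0.30 without a mitochondrial limit, −0.62 without an upper gene limit, −0.63 with 2-class barcodes kept, −0.39 at the 20% limit and −0.62 as a mean over cells. With HFD in SP it moved to 0.20 under 30% mitochondrial UMIs and 1.64 in late cells. In SP over WT on ND it moved to −1.98 under 30%, −2.01 without the limit, −2.26 with mitochondrial UMIs out of the denominator, −2.02 as a mean over cells, −2.24 with the lymphocyte level subtracted, −2.67 in early and −2.54 in late cells. On HFD it moved to −1.26 under 30%, −0.90 without the limit, −1.24 at the 20% limit, −0.59 as a mean over cells and −1.27 in early cells. Slc5a1 with HFD in WT moved to −0.37 under 30% and −0.45 without an upper gene limit. With HFD in SP it moved to −0.47 under 30%, −1.70 in early and −0.32 in late cells. In SP over WT on ND it moved to 0.26 under 30%, 0.26 without the limit, 1.23 in early and 0.01 in late cells, and on HFD to −0.28 with the lymphocyte level subtracted and 0.24 in late cells. Counts of genes past 2-fold (895, 464, 223 and 678) became 1807, 1017, 810 and 1600 with a minimum of 20 UMIs, and 568 in WT with HFD under 30%. Scaling by edgeR and DESeq2 factors moved none of the ratios beyond their intervals. CPM levels of each member in the class where it was highest were also rerun per library. Of these reruns, 88 stayed inside the counting interval of the main value and 72 fell outside it. They changed the mitochondrial limit, kept 2-class barcodes, doubled the marker minimum or took mitochondrial UMIs out of the denominator. The counting intervals of levels therefore do not cover the processing choices. Subtraction was done only where the PTC level was above the upper bound of the lymphocyte level. No paired analysis was possible because each condition has 1 library.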

Other observations

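Barcodes with 50% or more mitochondrial UMIs, left out above, made up 32.7%, 33.2%, 49.8% and 42.1% of WT-ND and WT-HFD, then SP-ND and SP-HFD. They held 122, 109, 34.8 and 56.9 CPM of Slc5a2, in the same order of libraries as the PTCs. The erythroid class of WT-HFD, 41 cells, held 102 CPM of Slc5a2 and 67.1 CPM of Slc5a10, carriers of PTCs.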
